A study of Mus musculus with 6 samples.

Results

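Integrins are the cell-surface receptors through which cells hold on to other cells and to extracellular matrix. The 10 genes described here encode leukocyte and matrix-binding integrin subunits: Itgal, Itgam, Itgax and Itgb2 (the leukocyte integrins), and Itga4, Itga5, Itga6, Itgav, Itgb1 and Itgb5 (receptors for matrix and for vascular ligands). They were chosen by gene name, with earlier results of these data known. All 10 were found among the 23060 gene names of the deposited expression table. The series holds RNA sequencing libraries of 3 tachypaced and 3 control samples. All 6 carry the genotype label WT, the tissue label heart and the cell line label HL-1, the name of a line derived from mouse atrial muscle cells, and were grown in serum-containing Claycomb medium with norepinephrine. Tachypacing drives cells electrically at a fast rate to model atrial fibrillation, and the labels state neither how fast nor how long it was applied. Since a single cell line was used and the labels do not call the replicates separate cultures, every p-value below reflects variation among 6 libraries that could be technical.

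An integrin is a pair of 1 alpha and 1 beta subunit, and the pair sets the ligand. The beta-2 subunit (Itgb2) pairs with alpha-L (LFA-1, a receptor for ICAM-1), alpha-M (Mac-1, a receptor for complement fragment iC3b and fibrinogen) and alpha-X (CD11c) on leukocytes. The beta-1 subunit (Itgb1) pairs with alpha-4 (VCAM-1 and fibronectin), alpha-5 (fibronectin) and alpha-6 (laminin). Alpha-V pairs with beta-5 and other beta subunits and binds vitronectin and osteopontin.

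The libraries held almost none of the cardiac muscle transcripts looked for. Of 8 cardiomyocyte markers, 5 had 0 FPKM throughout (Gata4, Nkx2-5, Myl7, Actc1 and Myh6), and the list summed to 0.107 to 0.239 FPKM in tachypaced and 0.242 to 0.430 FPKM in control libraries. FPKM scales fragments by transcript length and by library size, so levels of different genes are compared per length. Of 7 macrophage markers, 0 were at 0 throughout, and they summed to 1153 to 1284 FPKM in tachypaced and 904 to 1042 FPKM in control libraries. Among them, Fcgr1 and Mertk were low, reaching at most 0.357 and 0.649 FPKM in any library. No T cell marker exceeded 0.0115 FPKM, no dendritic cell marker 0.117 FPKM and no fibroblast marker 0.0961 FPKM in any library (4 markers each), with Cd3e, Cd3g, Cd8a, Flt3, Clec9a and Col3a1 at 0. Endothelial markers summed to 1.52 to 1.86 FPKM in tachypaced and 1.66 to 1.89 FPKM in control libraries. Neutrophil markers summed to 0.719 to 1.201 FPKM in tachypaced and 0.569 to 1.19 FPKM in control libraries, and platelet markers to 2.27 to 2.53 FPKM in tachypaced and 1.496 to 2.20 FPKM in control libraries.

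All 7 alpha genes share a coding stretch just inside the membrane, where the subunit meets its beta partner. The 33 coding bases around it are shown from the principal transcript of each gene (GENCODE M21, GRCm38), 5′ to 3′, to let the subunits be compared. Capitals mark the codons for glycine, phenylalanine, phenylalanine, lysine and arginine.
Itgal: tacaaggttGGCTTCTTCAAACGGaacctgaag
Itgam: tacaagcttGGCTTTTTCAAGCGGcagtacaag
Itgax: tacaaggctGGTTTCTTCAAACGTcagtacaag
Itga4: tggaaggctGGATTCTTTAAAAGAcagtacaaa
Itga5: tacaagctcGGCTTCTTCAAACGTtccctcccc
Itga6: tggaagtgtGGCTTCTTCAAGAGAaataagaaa
Itgav: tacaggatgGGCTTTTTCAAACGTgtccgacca
Itgam and Itgax were identical at 27 of the 33 bases, the most of any pair, and Itga4 and Itgav at 14, the fewest. Itgax and Itga4, on different chromosomes, were identical at 26, and Itgam and Itgal, both on chromosome 7, at 25.

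The beta tails carry a pair of short motifs to which talin and kindlin bind, the proteins that switch integrins on from inside the cell. The coding bases from the first motif to the last are shown for the beta genes that the results turn on, with each motif in capitals.
Itgb2: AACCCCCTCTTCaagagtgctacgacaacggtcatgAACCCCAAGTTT
Itgb1: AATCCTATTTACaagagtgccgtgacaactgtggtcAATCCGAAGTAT
Itgb7: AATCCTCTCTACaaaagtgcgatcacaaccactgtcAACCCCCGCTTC
Itgb5: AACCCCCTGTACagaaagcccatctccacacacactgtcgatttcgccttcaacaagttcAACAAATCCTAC
Over 48 bases Itgb2 and Itgb1 were identical at 33, and Itgb7 was identical at 31 to either of them. The stretch in Itgb5 is longer, at 72 bases.

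None of the integrins tested among the 10 passed the test between tachypaced and control libraries. Expression was compared on the log2(FPKM + 1) scale with limma, for genes averaging 1 FPKM or more over the 6 libraries, and called at a Benjamini-Hochberg adjusted p of at most 0.05. On that scale the fold change of low genes is understated. Of the 10 genes, 8 could be tested, and 0 were called, against 5.52% of all 10361 tested genes (2.30% higher and 3.22% lower). At an unadjusted p under 0.05 there was 1, Itgam, against 30.2% of all tested genes. The median log2 fold change of the 8 was 0.01 (range -0.11 to 0.30), against -0.04 over all tested genes. In bulk RNA a difference in the number of cells of a type cannot be told apart from one in RNA per cell. The control library labelled replicate 1 lay nearer to the tachypaced libraries than the other controls did for Itgam, Itgal, Itgax and Itga5. For the tested genes named here, calls that change without it are given with and without it.

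**Figure D1:**
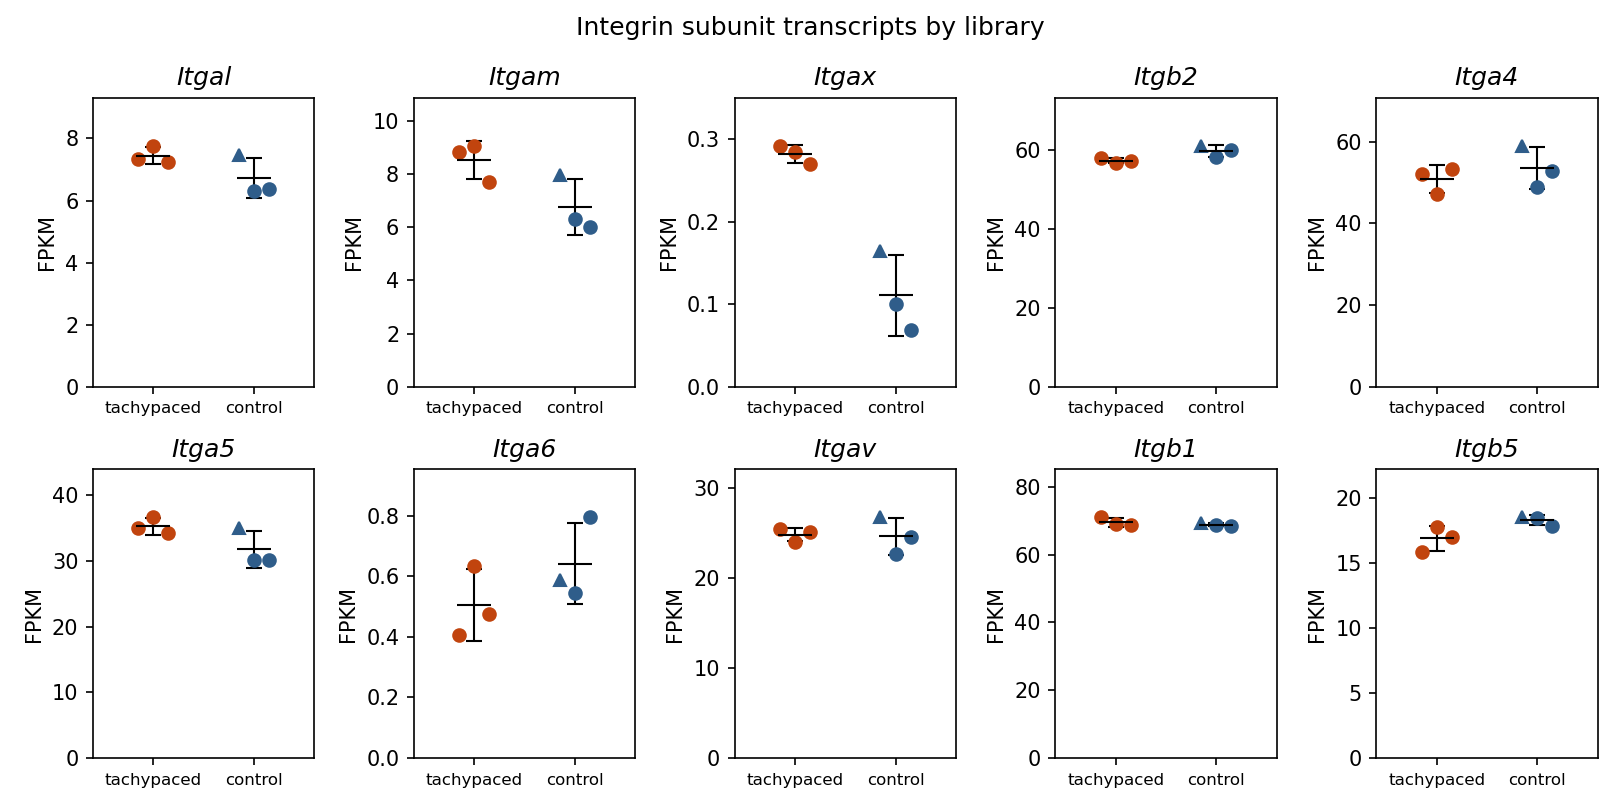
FPKM of the 10 integrin genes in each library, with tachypaced libraries in orange and control libraries in blue, control replicate 1 as a triangle, and mean and SD as black bars (n = 3 each); each panel has its own axis from 0. Itgax was higher in every tachypaced library than in any control, Itgb2 and Itgb5 were lower, and the groups overlapped for the other 7.

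Over all 6 libraries the transcripts ranked Itgb1 (mean 69.2 FPKM), Itgb2 (58.4), Itga4 (52.2), Itga5 (33.5), Itgav (24.8), Itgb5 (17.6), Itgam (7.65), Itgal (7.08), Itga6 (0.574) and Itgax (0.196). The ranges of neighbours in this order did not overlap, except those of Itgb2 with Itga4 and of Itgam with Itgal. Itgb2 was nevertheless above Itga4 in all 6 libraries, and Itgam above Itgal in 5 of 6. Itgb1 stood above 91.6% of all tested genes by mean and Itgb2 above 89.8%, whereas Itgam stood above 39.7%.

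Among the leukocyte integrins, Itgam (alpha-M, CD11b; chromosome 7, 128062640 to 128118491, GRCm38) had the largest difference of the 8 tested. It stood at 8.82, 9.06 and 7.72 FPKM in the tachypaced libraries and at 7.97, 6.32 and 6.03 FPKM in the controls. Control replicate 1 lay above tachypaced replicate 3, so the groups overlapped. The ratio of means was 1.26, and the log2 fold change of 0.30 (SE 0.10, 95% interval 0.07 to 0.53) did not pass (limma, adjusted p = 0.0962). Without control replicate 1 the log2 fold change was 0.41 (adjusted p = 0.00776), a setting in which 30.0% of all tested genes were called. Of 7 macrophage markers, 5 could be tested, of which 2 rose and 0 fell, with 2.30% higher and 3.22% lower over all tested genes. The markers were chosen after their values were seen, so their count cannot be weighed against those shares. Lyz2 (lysozyme) and Cd14 (endotoxin co-receptor) rose, with log2 fold changes of 0.50 and 0.53 (both limma adjusted p = 0.0435). Cd68, a lysosomal protein, and Adgre1 (F4/80) had log2 fold changes of 0.20 and 0.37 and did not pass (adjusted p = 0.0797 and 0.121, and 0.0170 and 0.00238 without control replicate 1). Csf1r, the receptor that sustains macrophages, did not pass either (adjusted p = 0.946) and averaged 94.8 ± 3.22 FPKM in tachypaced and 95.5 ± 8.09 FPKM in control libraries (SD, n = 3 each), and the part of macrophage markers in the Itgam values was not tested. A predicted gene, Gm49368, covers nearly all of Itgam on the same strand and averaged 0.0960 FPKM, so how reads were divided between them is uncertain.

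Itgax (alpha-X, CD11c; chromosome 7, 128129547 to 128150657) was the lowest of the 10 genes and the one with the largest ratio. It stood at 0.292, 0.285 and 0.270 FPKM in tachypaced libraries and at 0.165, 0.0996 and 0.0681 FPKM in controls. Every tachypaced value lay above every control value, as for 1766 of the 15992 genes with any value above 0, and the groups did not overlap in either direction for 26.4% of those genes. The mean was 2.55 times as high in tachypaced libraries, but the gene was below the level tested. With no filter on low values its log2 fold change on the log2(FPKM + 1) scale was 0.21 (SE 0.04) and did not pass (limma, adjusted p = 0.126), and under that setting 0 of all genes were called, with 3488 at an unadjusted p under 0.05. Read depth is unknown, so no counting error can be put on such low values.

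Itgal (alpha-L, CD11a; chromosome 7, 127296260 to 127335138) stood at 7.33, 7.75 and 7.25 FPKM in tachypaced libraries and at 7.45, 6.31 and 6.38 FPKM in controls. Control replicate 1 fell within the tachypaced range, while the other controls lay below it. The log2 fold change was 0.13 (95% interval -0.04 to 0.31, limma adjusted p = 0.273), and 0.20 without control replicate 1 (adjusted p = 0.0533).

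Itgb2 (beta-2, CD18; chromosome 10, 77530252 to 77565708), the partner that all 3 of these alpha subunits need to reach the surface, stood at 57.9, 56.7 and 57.0 FPKM in tachypaced libraries and at 60.9, 58.1 and 59.9 FPKM in controls. The tachypaced values all lay below the controls, by a margin smaller than the spread within either group. Groups without overlap were found for 2 of the 8 tested genes, Itgb2 and Itgb5, both lower, against 34.9% of all tested genes (12.6% higher and 22.4% lower). The log2 fold change of Itgb2 was -0.06 (95% interval -0.17 to 0.05, limma adjusted p = 0.434), and the interval as a ratio was 0.890 to 1.04.

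The alpha and beta transcripts of this group were set against each other within each library. The summed FPKM of Itgal, Itgam and Itgax per FPKM of Itgb2 was 0.284, 0.302 and 0.268 in tachypaced libraries and 0.256, 0.219 and 0.208 in controls. Every tachypaced ratio lay above every control ratio, and control replicate 1 was the nearest of the controls. The exact two-sided permutation p was 0.1, the smallest that 3 against 3 libraries can give, and 0.225 when adjusted over the 9 subunit ratios computed. Itgam made up 53.6%, 53.0% and 50.6% of the alpha sum in tachypaced libraries and 51.1%, 49.7% and 48.3% in controls, and these values overlapped. Itgal made up 44.6%, 45.4% and 47.6% in tachypaced libraries and 47.8%, 49.5% and 51.2% in controls, lower in every tachypaced library. Itgax made up 1.77%, 1.67% and 1.77% in tachypaced libraries and 1.06%, 0.783% and 0.546% in controls, higher in every tachypaced library. The 3 shares add up to a whole and were not tested. Itgad, the fourth alpha partner of beta-2 and next to Itgax on chromosome 7, was listed at 0 in 5 of 6 libraries and did not enter the sum.

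**Figure D2:**
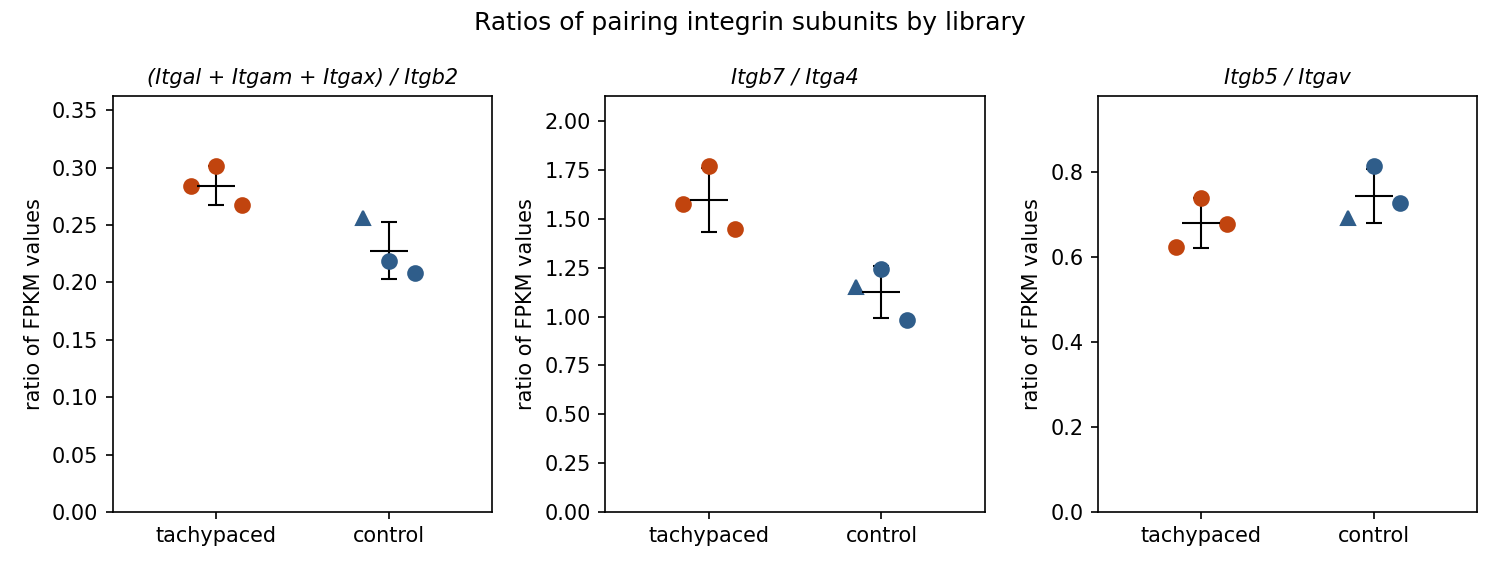
Ratio of FPKM values of integrin subunits that can pair, in each library, with tachypaced libraries in orange, controls in blue, control replicate 1 as a triangle, and mean and SD in black (n = 3 each). The leukocyte alpha sum over Itgb2 and Itgb7 over Itga4 were higher in every tachypaced library than in any control, and Itgb5 over Itgav overlapped.

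Among the matrix receptors, Itga5 (alpha-5, the fibronectin receptor subunit; chromosome 15, 103344286 to 103366763) stood at 35.0, 36.7 and 34.2 FPKM in tachypaced libraries and at 35.0, 30.2 and 30.2 FPKM in controls. Control replicate 1 lay within the tachypaced range and the other controls lay below them. The log2 fold change of 0.15 (95% interval -0.01 to 0.31) did not pass (limma, adjusted p = 0.184), and without control replicate 1 it was 0.22 (adjusted p = 0.0144). Itga5 and Itgam were the 2 of 8 called in that setting, both higher, against 11.2% of all tested genes called higher and 18.8% called lower.

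Itga4 (alpha-4, CD49d; chromosome 2, 79255426 to 79333123) stood at 52.1, 47.2 and 53.4 FPKM in tachypaced libraries and at 59.0, 48.9 and 52.9 FPKM in controls. The groups overlapped widely, and the log2 fold change was -0.07 (95% interval -0.25 to 0.11, limma adjusted p = 0.571). Cerkl, a gene on the opposite strand, overlaps 2581 bases of Itga4 and averaged 0.732 FPKM, and whether reads were counted by strand is not stated. Itga4 was in each library more abundant than Itga5, its alternative partner for beta-1, by 1.49, 1.29 and 1.56 times in tachypaced libraries and 1.68, 1.62 and 1.75 times in controls. These ratios did not overlap (exact permutation p = 0.1, the smallest possible, adjusted 0.225).

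Itgb1 (beta-1, CD29; chromosome 8, 128685654 to 128733200) was the most abundant of the 10 genes. It stood at 71.0, 68.9 and 68.8 FPKM in tachypaced libraries and at 69.5, 68.8 and 68.4 FPKM in controls. Its log2 fold change was 0.01 with the narrowest 95% interval of the 8, -0.09 to 0.12 (limma, adjusted p = 0.868). Itgav (alpha-V, CD51; chromosome 2, 83724397 to 83806916) stood at 25.5, 24.02 and 25.1 FPKM in tachypaced libraries and at 26.8, 22.7 and 24.6 FPKM in controls, with a log2 fold change of 0.01 (95% interval -0.14 to 0.17, adjusted p = 0.913). For both genes the groups overlapped, and the sign of the fold change turned when libraries were scaled to a common total.

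Itgb5 (beta-5; chromosome 16, 33829665 to 33949338), the vitronectin receptor partner of alpha-V, stood at 15.9, 17.8 and 17.0 FPKM in tachypaced libraries and at 18.5, 18.5 and 17.8 FPKM in controls. The tachypaced values were all lower, with tachypaced replicate 2 close to control replicate 3. The log2 fold change was -0.11 (95% interval -0.25 to 0.03, limma adjusted p = 0.258). Itgb3, which also pairs with alpha-V, averaged 0.221 ± 0.0386 FPKM in tachypaced and 0.153 ± 0.0425 FPKM in control libraries (SD, n = 3 each), so Itgb5 exceeded it by at least 69.1 times in every library.

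Itga6 (alpha-6, a laminin receptor subunit; chromosome 2, 71745616 to 71858416) was below the level tested, at 0.405, 0.635 and 0.477 FPKM in tachypaced libraries and at 0.587, 0.546 and 0.795 FPKM in controls. The groups overlapped. With no filter on low values its log2 fold change was -0.13 (95% interval -0.32 to 0.07, limma adjusted p = 0.414).

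**Figure D3:**
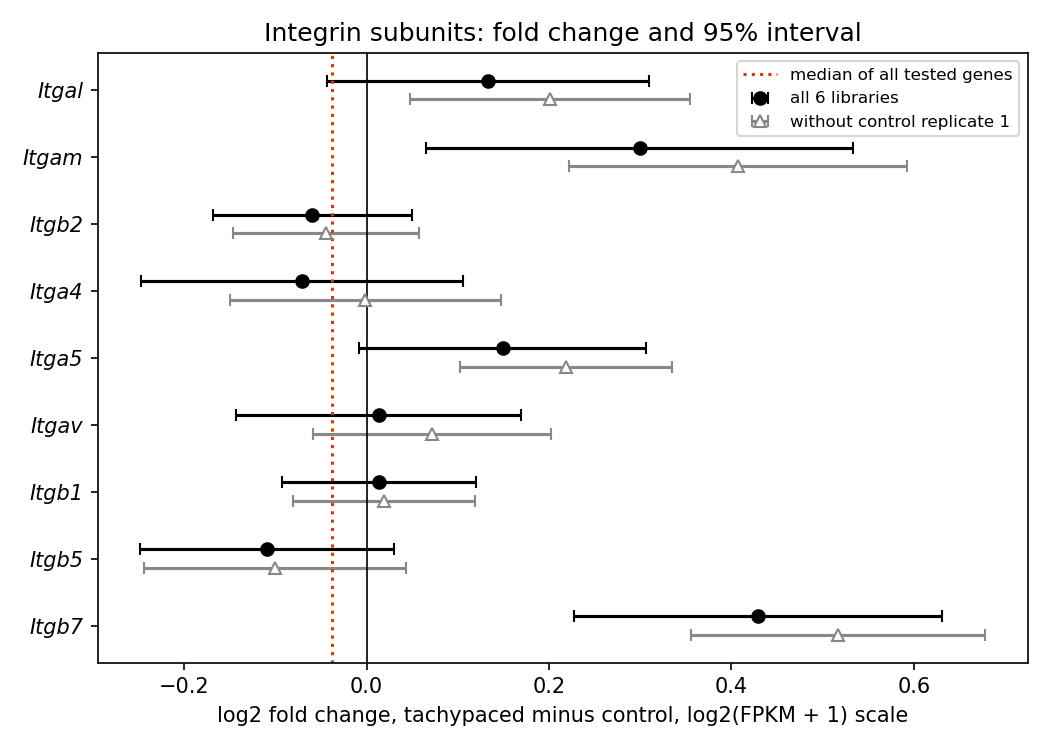
Log2 fold change, tachypaced minus control on the log2(FPKM + 1) scale, with its 95% interval for the 8 tested integrin genes and for Itgb7, from all 6 libraries (black circles) and without control replicate 1 (grey triangles); the dotted line is the median of all tested genes (-0.04). The intervals of Itgam and Itgb7 lie above 0 in both fits, and those of Itga5 and Itgal only without control replicate 1.

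Of the 17 other integrin subunit genes, 6 had 0 FPKM throughout and 3 could be tested. Of these 3, Itgb7 rose and 0 fell (median log2 fold change 0.26), against 2.30% higher and 3.22% lower over all tested genes. Itgb7 (beta-7; chromosome 15, 102215995 to 102231944) pairs with alpha-4 to form the receptor for the gut vascular ligand MAdCAM-1. It stood at 82.1, 83.6 and 77.3 FPKM in tachypaced libraries and at 67.8, 60.9 and 52.0 FPKM in controls. All tachypaced values lay above all controls, with a ratio of means of 1.34 and a log2 fold change of 0.43 (SE 0.09, limma adjusted p = 0.0435). The adjusted p was 0.00180 without control replicate 1 and between 0.0745 and 0.172 when any other library was left out, so the call does not hold without any of those 5. Those 5 fits each called between 1 and 13 of all tested genes, and the fit without control replicate 1 called 30.0%.

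Alpha-4 can join either beta-1 or beta-7, and their transcripts were of like abundance here. Itgb7 per Itga4 was 1.58, 1.77 and 1.45 in tachypaced libraries and 1.15, 1.25 and 0.982 in controls. Itgb7 per Itgb1 was 1.16, 1.21 and 1.12 in tachypaced libraries and 0.977, 0.885 and 0.760 in controls, so Itgb7 exceeded Itgb1 in every tachypaced library and in 0 of 3 controls. For both ratios the groups did not overlap (exact permutation p = 0.1 each, the smallest possible, adjusted 0.225). Both have Itgb7 as numerator, so they are not separate from its own difference. Itga4 per Itgb1 overlapped (exact permutation p = 0.5), as did Itga5 per Itgb1 (0.3) and Itgam per Itgal (0.2). The ratios of Itgb5 to Itgav and to Itgb3 also overlapped (exact permutation p = 0.3 and 0.2).

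Itga7, a laminin receptor subunit best known from muscle, stood at 5.24 ± 0.344 FPKM in tachypaced and 4.28 ± 1.03 FPKM in control libraries (SD, n = 3 each) and did not pass (limma, adjusted p = 0.203). Itgb4, the alpha-6 partner in epithelial hemidesmosomes, stood at 4.66 ± 0.183 FPKM in tachypaced and 4.38 ± 0.389 FPKM in control libraries (adjusted p = 0.554). Itga2b, the platelet fibrinogen receptor subunit, was below the level tested at 0.616 ± 0.0184 FPKM in tachypaced and 0.384 ± 0.0392 FPKM in control libraries. Without control replicate 1, Itga7 also passed (log2 fold change 0.41, adjusted p = 0.00691).

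The genes that integrins work with were then described from lists of ligands, adaptors and membrane partners. Like that of the other integrin subunits, these lists were written with earlier results of these data known. Their counts of calls therefore cannot be weighed against the shares of all tested genes, which are given for reference. All 8 calls in these lists, like that of Itgb7, also passed without control replicate 1 and did not pass without any 1 of the other 5 libraries (limma, adjusted p between 0.0669 and 0.178). Over all tested genes, 30.0% were called without control replicate 1 and between 1 and 13 genes without any other library.

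Of 43 integrin ligand genes, 13 could be tested, of which 2 rose and 0 fell (median log2 fold change 0.09), against 2.30% higher and 3.22% lower over all tested genes. Osteopontin (Spp1), a ligand of alpha-V and alpha-4 integrins, reached 14416, 14823 and 12622 FPKM in tachypaced libraries and 10898, 10104 and 9453 FPKM in controls (log2 fold change 0.46, limma adjusted p = 0.0435). Latent TGF-beta 1 (Tgfb1), which alpha-V integrins activate, had a log2 fold change of 0.28 (adjusted p = 0.0452). Mfge8, a bridge from apoptotic cells to alpha-V integrins, averaged 174 ± 6.28 FPKM in tachypaced and 179 ± 12.6 FPKM in control libraries. Adam15, a disintegrin protease, averaged 108 ± 6.11 FPKM in tachypaced and 106 ± 2.94 FPKM in control libraries (SD, n = 3 each; adjusted p = 0.678 for Mfge8 and 0.813 for Adam15). Icam1, the ligand of LFA-1 and Mac-1, averaged 60.3 ± 2.17 FPKM in tachypaced and 55.6 ± 5.90 FPKM in control libraries (adjusted p = 0.312, and 0.0158 without control replicate 1). Fibronectin (Fn1) and Vcam1 were listed at 0 throughout. These last 3 genes were chosen after their values were seen.

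Of 45 activation and adaptor genes, 38 could be tested, of which 1 rose and 2 fell (median log2 fold change 0.005). With 2.30% higher and 3.22% lower over all tested genes, these counts are near the background, and the genes are given as single values. Rap1b, a small GTPase that turns integrins on, stood at 107, 113 and 102 FPKM in tachypaced libraries and at 91.4, 80.1 and 79.6 FPKM in controls (log2 fold change 0.35, limma adjusted p = 0.0435). Rap1a, of the same list and chosen after its values were seen, had a log2 fold change of -0.001 (adjusted p = 0.982). Vinculin (Vcl), which couples talin to actin, stood at 17.2, 14.99 and 17.5 FPKM in tachypaced libraries and at 19.4, 22.1 and 21.9 FPKM in controls (log2 fold change -0.33, adjusted p = 0.0472). Filamin A (Flna), an actin cross-linker that competes with talin for beta tails, stood at 22.3, 21.8 and 23.5 FPKM in tachypaced libraries and at 26.3, 28.4 and 29.1 FPKM in controls (log2 fold change -0.29, adjusted p = 0.0435). For Rap1b, Vcl and Flna the groups did not overlap, as for 34.9% of all tested genes. Rap1b was higher and Vcl and Flna were lower in every tachypaced library.

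Talin and kindlin, which bind the motifs shown above in the beta tails, did not pass. Talin 1 (Tln1) averaged 89.7 ± 1.79 FPKM in tachypaced and 96.4 ± 0.163 FPKM in control libraries (SD, n = 3 each; log2 fold change -0.10, limma adjusted p = 0.171). Kindlin 3 (Fermt3), the kindlin of blood cells and a gene chosen after its values were seen, averaged 32.1 ± 1.27 FPKM in tachypaced and 37.7 ± 3.43 FPKM in control libraries (log2 fold change -0.22, adjusted p = 0.0904, and 0.00485 without control replicate 1). For both, all tachypaced values were below all control values, as for 22.4% of all tested genes. In this list that held for 6 of the 38 tested genes. The scaffold Rack1 and alpha-actinin 4 (Actn4) had log2 fold changes of 0.06 and -0.03 (adjusted p = 0.394 and 0.682).

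Of 17 membrane partners of integrins, 15 could be tested, of which 3 rose and 0 fell (median log2 fold change 0.20), where 2.30% of all tested genes were higher and 3.22% lower. Tetraspanins, which gather integrins into membrane domains, make up 8 of the 15, a grouping made after the values were seen: 3 rose (Cd53, Cd63 and Cd37) and 5 did not pass. Cd53, of leukocytes, stood at 132, 142 and 120 FPKM in tachypaced libraries and at 99.8, 66.4 and 57.5 FPKM in controls (ratio of means 1.76, log2 fold change 0.84, limma adjusted p = 0.0435). Cd63, of late endosomes, and Cd37, of leukocytes, had log2 fold changes of 0.49 and 0.25 (adjusted p = 0.0460 and 0.0480). Of the other tetraspanins, Cd82 and Tspan4 had log2 fold changes of 0.33 and 0.36 (adjusted p = 0.0558 and 0.0778), Cd81 of -0.02 (0.808), and Cd151 of -0.19 with every tachypaced value lower (0.104). The abundant partners Bsg (basigin), Cd9 (a tetraspanin) and Sdc4 (syndecan 4) had log2 fold changes of -0.20, 0.05 and 0.20 and did not pass (adjusted p = 0.120, 0.557 and 0.0704). Without control replicate 1, 11 of the 15 tested partners were called, 10 higher and 1 lower. In that setting 11.2% of all tested genes were called higher and 18.8% lower. Among the genes named here, Cd82, Tspan4, Bsg and Sdc4 newly passed (limma, adjusted p = 0.000981, 0.00207, 0.00336 and 0.00751). Control replicate 1 stood 0.68 above the other controls on Cd53 on the log2 scale.

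**Figure D4:**
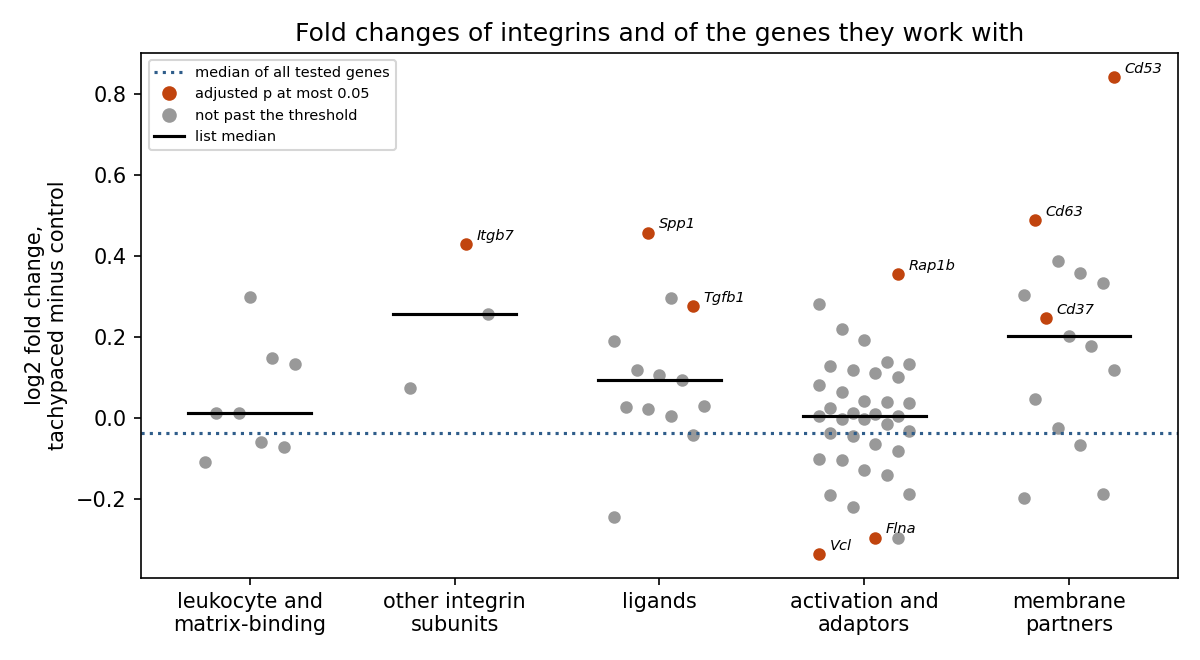
Log2 fold change of each tested gene, tachypaced minus control, for the leukocyte and matrix-binding integrins, the other integrin subunits, and the ligand, activation and adaptor, and membrane partner genes; orange points passed the test, grey points did not, black bars are list medians and the dotted line is the median of all tested genes. The 8 integrins lie between -0.11 and 0.30 with 0 called, and 9 genes of the other lists were called, 7 higher and 2 lower.

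Promoter sequence is shown for the 3 genes with the largest ratios among those with an entry, Itgam, Itgax and Itga5 (RefSeq, GRCm38.p6, from 250 bases before to 50 bases after the start, each on the strand of its gene). The windows are chr7:128062390-128062689 for Itgam, chr7:128129300-128129599 for Itgax, both on the plus strand, and chr15:103366742-103367041 for Itga5 on the minus strand. Capitals mark GAGGAA on either strand, a core of the kind bound by PU.1, a transcription factor of myeloid cells that is known to act at the human CD11b and CD18 promoters.
Itgam: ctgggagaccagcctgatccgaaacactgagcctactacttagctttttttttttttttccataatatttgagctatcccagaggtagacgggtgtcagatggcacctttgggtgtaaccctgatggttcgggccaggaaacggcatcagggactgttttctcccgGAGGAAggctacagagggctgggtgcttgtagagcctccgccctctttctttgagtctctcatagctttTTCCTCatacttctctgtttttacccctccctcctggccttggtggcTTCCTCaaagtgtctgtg
Itgax: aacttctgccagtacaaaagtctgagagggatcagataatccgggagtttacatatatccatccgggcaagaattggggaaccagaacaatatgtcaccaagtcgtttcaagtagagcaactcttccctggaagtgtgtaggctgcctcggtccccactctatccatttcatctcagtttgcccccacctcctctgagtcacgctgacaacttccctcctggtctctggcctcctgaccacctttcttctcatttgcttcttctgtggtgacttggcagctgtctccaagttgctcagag
Itga5: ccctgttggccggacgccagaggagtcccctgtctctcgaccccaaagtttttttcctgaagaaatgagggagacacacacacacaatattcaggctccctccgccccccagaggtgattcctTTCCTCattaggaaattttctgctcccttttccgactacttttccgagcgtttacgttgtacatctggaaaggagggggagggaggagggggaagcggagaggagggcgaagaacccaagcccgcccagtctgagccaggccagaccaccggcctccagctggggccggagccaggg
The Itgam window held 3 such matches, Itga5 held 1 and Itgax held 0. Of the 7 members with a promoter entry, 4 held a match, against 28.3% of 32851 mouse promoters of this length. They were Itgam, Itga5, Itgav (2 matches) and Itgb1 (1 match), and both Itgav and Itgb1 had a log2 fold change of 0.01. The TATAAA motif, searched on both strands, was in 0 of the 7, against 13.6% of all. These matches are a description of the letters in these windows, and binding was not measured.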

How the data were processed

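Total RNA of 3 tachypaced and 3 control samples was extracted with a Qiagen kit and made into libraries with a SMARTER mRNA kit, per the labels' protocols. The authors deposited FPKM values, 1 row per gene name and 1 column per library, and the submitters' processing notes name the build GRCm38 (mm10). Aligner, quantifier, annotation and strand handling: not given in the sources used here. FPKM carries no read counts, so depth is unknown, and the columns summed to 411050 to 432244.

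Columns were matched to samples by the description in the labels. On the log2(FPKM + 1) scale, the 10361 genes averaging 1 FPKM or more were fitted with limma 3.58.1 in R 4.3.3 (eBayes with trend, two-sided, no covariates), with Benjamini-Hochberg adjustment over all of them. The steps were tested on simulated data. Subunit ratios were compared by exact permutation. Positions and coding stretches came from GENCODE M21. Alternatives were another pseudocount, filters, scalings, variance models, the replicate block and leaving out each library.

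The 10 members and the lists of other integrin subunits, ligands, adaptors, partners and markers were chosen with earlier results of these data known. Named were all 10 members, up to 6 called genes per list and the 4 most abundant of each of the 4 lists of related genes (marker genes and others so described were chosen after their values were seen). Python 3.11.15 with pandas 2.3.3 was used for tables.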

Additional observations from a re-analysis of the deposited data

How the results depend on the processing

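Over 120 alternative values for the 8 tested integrin genes, 113 kept the direction and side of the threshold, 2 became called (Itgam and Itga5 without control replicate 1) and 5 turned sign. Itgax and Itga6 have a value with no filter only, and no alternative was run for them. Those that turned were Itgav, with a log2 fold change of -0.024 with a common total per library and -0.044 to 0.072 when a library was left out, and Itgb1, at -0.025 with a common total and -0.0011 to 0.022 when a library was left out. Of the abundant ligands, Mfge8 ranged from -0.10 to 0.0052 when a library was left out, and Adam15 from -0.021 to 0.057, with -0.016 at a common total. The cause was not tested.

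The count of integrin members called was 0 under every setting that kept all libraries, and 0 to 2 when a library was left out. Over all tested genes, 572 were called, against 0 with no filter, 17 with quantile normalization, 1172 with a common total (250 higher and 922 lower), 2 without the trend, 925 with the replicate block and 1 to 3109 when a library was left out. Median of ratios scaling gave 221 higher and 183 lower, against 238 and 334. With no filter, with quantile normalization and without the trend, 0 genes were called among the other integrin subunits, ligands, adaptors and partners, and a common total gave 5 adaptors. When a library was left out, the counts were 0 to 2 for other subunits, 0 to 7 for ligands, 0 to 12 for adaptors and 0 to 11 for partners, each highest without control replicate 1. Without any of the other 5 libraries, all 9 calls named in these lists were lost, and between 1 and 13 of all tested genes were called. Cd53 was also lost with robust hyperparameters (adjusted p = 0.0536), Vcl with median of ratios scaling (0.0540), and Cd37 with a common total (0.0501) or the replicate block (0.0554).

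The labels do not say whether libraries with the same replicate number are pairs. Their deviations from the group means correlated at 0.06, -0.03 and 0.16. Tachypaced replicates 1 and 3 correlated best with the control of the same number, and tachypaced replicate 2 with control replicate 1 (0.08). These correlations were not tested and do not settle whether the libraries are paired. The block called 0 of the 8 integrins, 1 other subunit, 2 ligands, 4 adaptors and 3 partners. Without read depth, no counting error can be put on the differences in Itgax and Itga6, both below 1 FPKM.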
